A study of Mus musculus with 18 samples.

Results

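The Hedgehog pathway was followed through 8 genes, the ligands Shh and Ihh, the receptors and receptor-like proteins Ptch1, Smo and Hhip, and the transcription factors Gli1, Gli2 and Gli3, in single cells of the mouse stomach. The members were named from the pathway and not ranked by a measured value, though earlier results of these data were known. They make up 8 of the 31201 gene names counted in the series. All 8 had at least 1 UMI (a unique molecular identifier, counted once per captured transcript) in each dataset. Transcripts were counted by Quartz-Seq2, a plate method that tags the 3' end of each transcript. Cells came from 10-week-old male C57BL/6J wild-type mice, with the tissue of 3 mice pooled before sorting, and no mouse carried an allele or received a treatment. Dataset 1 held gastric corpus and antrum together, from the pools tube1 and tube2 on 6 plates. Its cells were gated as ToPro3(-) by the sample labels, while the paper names PI as the dye that marked dead cells. Dataset 2 held corpus alone, from the pools K and T on 12 plates, gated as Hoechst33342(+) and ToPro3(-). The muscle layers had been peeled away before dissociation, so the stromal cells described are those that stayed with the glands. After the authors' filter 491 cells remained in dataset 1 and 3993 in dataset 2, with a median of 38757 and 31020 UMIs per cell. Plate totals ranged from 3054370 to 5346035 UMIs in dataset 1 and from 10540256 to 12850942 in dataset 2. Every plate carried the same 384 well barcodes by design, so a barcode was shared by all plates and named a well, not a cell. Cell types were the authors' clusters, 15 in dataset 1 and 20 in dataset 2. With 2 pools per dataset, an error is the SD of 2 pools unless stated otherwise, and counting intervals cover counting error only.

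Hedgehog ligands are secreted proteins. In a receiving cell they bind Patched (Ptch1), which otherwise holds the signal transducer Smoothened (Smo) inactive, and the Gli factors then alter transcription. Ptch1, Hhip (a membrane protein that binds and sequesters ligand) and Gli1 are themselves transcribed in response to the signal, so their transcripts are commonly read as a mark of receiving cells. In the gut tube the ligands are made by epithelium and the response is known from the mesenchyme beneath it. The fundic gland of the corpus holds mucous pit cells at the surface, proliferating isthmus cells below them, then neck cells, acid-secreting parietal cells and pepsinogen-secreting chief cells at the base.

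The files were made on GRCm39 with Gencode M27, and the positions here are on the same build from the later release Gencode M39. Shh lies at chr5:28661813-28672254 and Ihh at chr1:74984474-74990837, both on the minus strand. Ptch1 lies at chr13:63656142-63721412 (minus), Smo at chr6:29735407-29762532 (plus) and Hhip at chr8:80692480-80784658 (minus). Gli1 lies at chr10:127165751-127177865 (minus), Gli2 at chr1:118761858-118982598 (minus) and Gli3 at chr13:15637809-15904611 (plus). All 8 are protein-coding genes, and the counts are of the whole gene.

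The RefSeq promoter table (GRCm38.p6, 250 bases before to 50 bases after a start) held an entry for 6 of the 8 members, Ihh, Ptch1, Smo, Hhip, Gli2 and Gli3. The entries for Hhip and Ihh are shown from 250 to 51 bases before the start, because Hhip was the member that differed most between the 2 kinds of stromal-like cell and Ihh was the ligand found in most of the epithelium. Both are 5' to 3' on the minus strand, and capitals mark GC boxes, GGGCGG on either strand.
Hhip, chr8:80058059-80058258: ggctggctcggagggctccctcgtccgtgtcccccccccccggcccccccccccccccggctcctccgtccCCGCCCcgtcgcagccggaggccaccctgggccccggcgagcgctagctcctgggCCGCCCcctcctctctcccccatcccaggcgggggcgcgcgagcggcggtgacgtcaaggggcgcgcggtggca
Ihh, chr1:74951723-74951922: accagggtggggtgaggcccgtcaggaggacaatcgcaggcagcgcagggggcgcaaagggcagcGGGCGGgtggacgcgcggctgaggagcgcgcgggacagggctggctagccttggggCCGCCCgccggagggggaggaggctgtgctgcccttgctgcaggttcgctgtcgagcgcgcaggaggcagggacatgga
Both stretches held 2 GC boxes and were GC-rich, with 82.0% G or C for Hhip and 73.5% for Ihh against a median of 51.5% over all 32851 promoters. A GC box was present in 5 of the 6 member promoters, all but that of Smo, and in 35.7% of all promoters. The letters GACCACCCA, the core that Gli proteins are known to bind, were searched on both strands and overlap with no GC box. They stood in 83 of all promoters (0.253%) and in none of the 6 member promoters, which says only that these letters are not in these windows.

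Shh was a transcript of the pit lineage in the corpus. In dataset 2 the mature pit cells (cluster 13) of pools K and T held 366 Shh UMIs in 2165683 and 431 in 2908998, a mean of 158.6 ± 14.7 per 1000000 UMIs (CPM, used for all levels below) with 148 in the lower pool, T. Pre-pit cells (cluster 4) stood at 35.7 and 45.5 CPM and the 5 isthmus clusters together at 13.9 and 15.8 CPM. Neck, chief and parietal cells stood at 3.16 ± 0.58, 1.88 ± 0.07 and 1.21 ± 0.52 CPM. The order from mature pit to parietal held without overlap between neighbouring types in both pools. The last step, from chief to parietal cells, rests on 12 and 43 Shh UMIs and is not separated by counting error. Among the isthmus clusters Shh ranged from 6.58 CPM in cluster 3 (pool T) to 39.1 CPM in cluster 11 (pool T), and this last value lay between those of the pre-pit cells of the 2 pools. Cluster 11 was low in the isthmus markers Stmn1, Mki67 and Hmgb2, which summed to 65.4 and 99.3 CPM (pools K and T). The sums were 46.7 and 63.0 CPM in pre-pit cells and 191 to 1235 CPM in the other isthmus clusters.

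**Figure D1:**
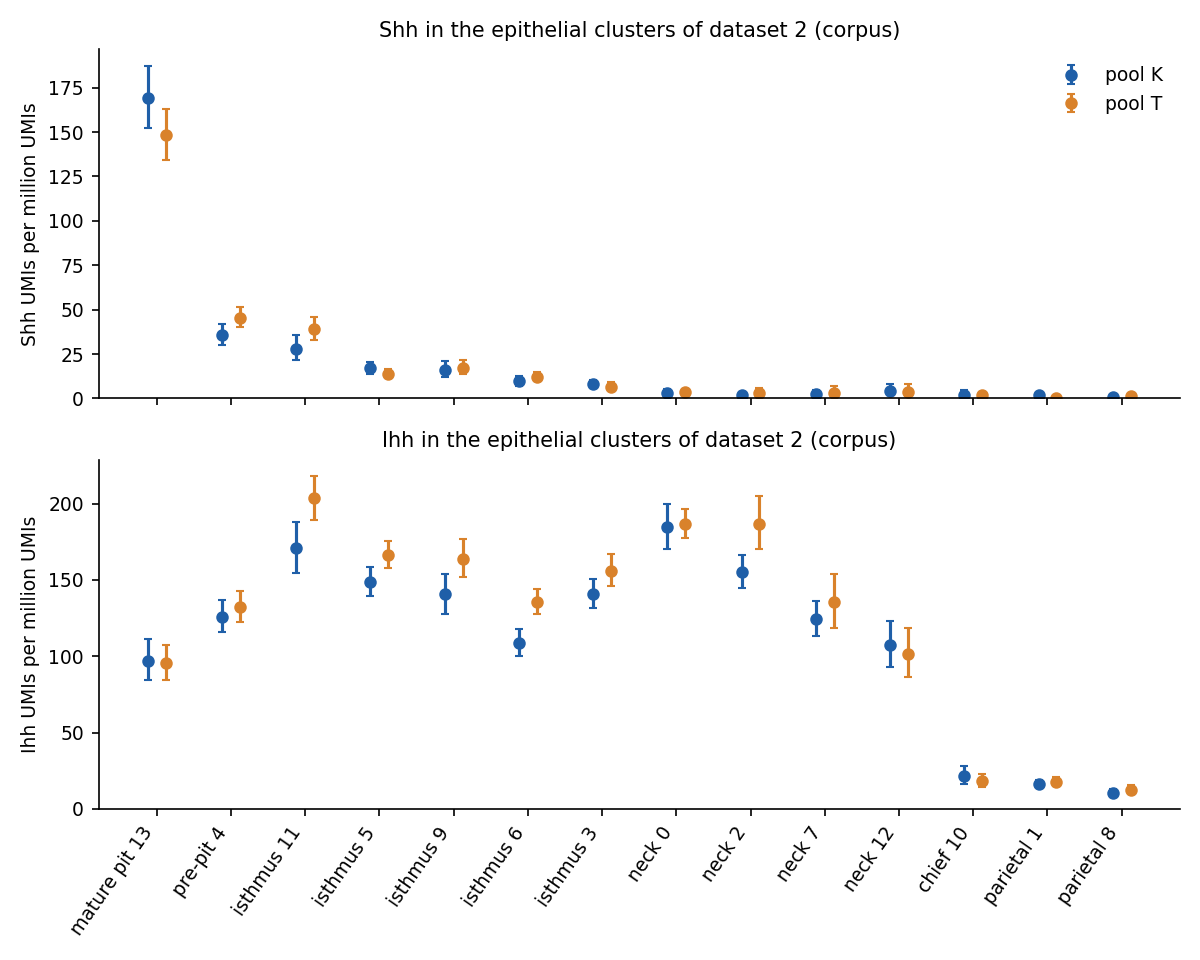
Shh (top) and Ihh (bottom) in the 14 epithelial clusters of dataset 2, in CPM, with 1 point per pool and bars for the exact Poisson 95% interval of the count. Shh fell from a mean of 158.6 in mature pit cluster 13 to under 5 in every neck, chief and parietal cluster, while Ihh lay above 90 in all pit, isthmus and neck clusters and at or under 21.6 in the chief and parietal ones.

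The tests between types followed this order. Pit cells (mature and pre-pit averaged) exceeded the average of neck, chief and parietal cells by a log2 fold change of 5.16 ± 0.14 (SE, edgeR quasi-likelihood test, adjusted p = 2.6e-12). Isthmus cells exceeded that average by 2.45 ± 0.17 (SE, edgeR adjusted p = 3.1e-08), and pit cells exceeded isthmus cells by 2.71 ± 0.13 (SE, edgeR adjusted p = 3.2e-09). Within the pit lineage, mature cells exceeded pre-pit cells by 2.08 ± 0.15 (SE, edgeR adjusted p = 2.3e-06). Neck cells lay below isthmus cells by a log2 fold change of -2.17 ± 0.19 (SE, edgeR adjusted p = 7.9e-07). The clusters were themselves formed from the expression of these cells, so the p-values measure the spread between pools and are not independent of the clustering.

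The low Shh counts outside the pit lineage were set beside Gkn2, the gastrokine that pit cells make in bulk. Mature pit cells held 3.12 Shh UMIs per 1000 Gkn2 UMIs (95% Poisson interval 2.91 to 3.34). Parietal cells held 3.60 (2.61 to 4.85) and chief cells 4.20 (2.17 to 7.34), from 43 and 12 Shh UMIs, and both intervals hold the mature pit ratio. Neck cells held 6.93 (5.57 to 8.52) from 90 Shh UMIs, above the mature pit ratio. Isthmus and pre-pit cells lay below it, at 1.39 (1.29 to 1.49) and 1.21 (1.09 to 1.34). Free RNA in the wells was not measured, and its part in the low counts was not tested. The 22 leukocyte and endothelial cells of clusters 18 and 19 held 0 Shh UMIs in 206095 UMIs, which allows up to 14.6 CPM.

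Ihh, the other ligand, covered a wider range of the gland. It stood at 148 and 170.8 CPM (pools K and T) in neck cells, 139 and 161 in isthmus cells, 126 and 132 in pre-pit cells and 97.0 and 95.6 in mature pit cells. Chief cells held 21.6 and 18.3 CPM and parietal cells 14.4 and 15.4. The levels of neck and isthmus cells overlapped between pools, while each later neighbour in this order was separated. The highest cluster value was 203 CPM in isthmus cluster 11 of pool T, the same cluster that led the isthmus in Shh and was lowest there in isthmus markers. The neck clusters ran from 187 CPM (clusters 0 and 2, pool T) down to 101 CPM (cluster 12, pool T).

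Pit and isthmus cells both exceeded the average of neck, chief and parietal cells in Ihh, by log2 fold changes of 1.43 ± 0.08 (SE, edgeR adjusted p = 4.1e-09) and 1.57 ± 0.09 (SE, edgeR adjusted p = 2.2e-09). That average includes the neck cells, where Ihh was highest. Pit against isthmus gave -0.15 ± 0.09 (SE, edgeR adjusted p = 0.23) and neck against isthmus 0.15 ± 0.10 (SE, edgeR adjusted p = 0.22). Mature against pre-pit cells gave -0.29 ± 0.12 (SE, edgeR adjusted p = 0.16). With the pool as a block the last difference was called, at -0.29 with an edgeR adjusted p of 0.048. The values used the TMM scaling of edgeR, and scaling by total UMIs alone moved Ihh in pit against isthmus to -0.43, where the median of all genes moved by -0.28.

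The share of Shh among the ligand UMIs was highest in mature pit cells. Of all Shh and Ihh UMIs together, Shh made up 63.5% in mature pit cells of pool K (exact binomial 95% interval 59.5 to 67.5%) and 60.8% in pool T (57.1 to 64.4%). It made up 22.1% and 25.6% in pre-pit cells, 9.13% and 8.92% in isthmus cells and 1.83% and 2.04% in neck cells. The genes may be captured with unequal efficiency, so the level of the share is not a ratio of molecules, while the order of the types does not depend on a fixed factor between the genes. In single mature pit cells both ligands were often detected. After each cell was thinned to 10000 UMIs, Shh was detected in 74.0% and 67.2% of mature pit cells (pools K and T), Ihh in 62.0% and 53.7%, and both in 44.0% and 34.3%. No test was made of whether the ligands occur together more often than their separate shares give. Without thinning, at medians of 43361 and 44629 UMIs per cell, both were detected in 69.8% and 80.9%. In thinned isthmus cells Ihh was detected in 68.0% and 75.6%, Shh in 10.3% and 9.64%, and both in 6.39% and 7.96%. In neck cells both were detected in 2.35% and 2.50%. In parietal cells, taken as the type with least Shh, the thinned shares were 0.752% and 1.32% for Shh, 11.03% and 10.6% for Ihh and 0% for both. The thinning left out 0 to 5 cells of each type and pool.

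Over the 14 epithelial clusters of dataset 2, genes whose mean log2 CPM followed Shh most closely included Gm8074 (Pearson r = 0.970), Rep15 (0.967), Gm5485 (0.963) and Lypd8l (0.960), of 13894 genes compared. Those closest to Ihh were Scmh1 (0.982), 2810459M11Rik (0.979), Plekha6 (0.978), Cfap69 (0.977) and Galnt6 (0.975). The clusters share libraries, so these values describe likeness and carry no test.

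Among the receptors, Smo was lowest in mature pit and parietal cells, the types with the most and the least Shh. Neck cells held 36.1 and 30.5 Smo CPM (pools K and T), isthmus cells 25.2 and 24.2, chief cells 14.3 and 12.5 and pre-pit cells 11.3 and 9.30. Mature pit cells held 3.69 and 2.06 CPM, from 8 and 6 UMIs, and parietal cells 3.57 and 4.02. Parietal and mature pit cells overlapped, and the other neighbours did not. Smo was lower in pit than in isthmus cells by a log2 fold change of -1.93 ± 0.16 (SE, edgeR adjusted p = 3.8e-07) and lower in mature than in pre-pit cells by -1.74 ± 0.30 (SE, edgeR adjusted p = 0.0021). Pit cells also lay below the average of neck, chief and parietal cells, at -1.36 ± 0.16 (SE, edgeR adjusted p = 5.3e-06). Isthmus cells lay above that average, at 0.57 ± 0.10 (SE, edgeR adjusted p = 0.00021), and neck cells above isthmus cells, at 0.50 ± 0.11 (SE, edgeR adjusted p = 0.0021).

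Ptch1 was low in the epithelium of dataset 2, and lowest in chief cells. It stood between 15.8 and 25.7 CPM in mature pit, pre-pit, isthmus, neck and parietal cells of both pools, and at 8.47 and 6.53 CPM in chief cells. None of the 5 epithelial comparisons of dataset 2 called it, with log2 fold changes from -0.26 ± 0.17 (mature against pre-pit, SE, edgeR adjusted p = 0.41) to 0.16 ± 0.10 (neck against isthmus, SE, edgeR adjusted p = 0.22). Under total-UMI scaling Ptch1 was called higher in isthmus cells than in neck, chief and parietal cells, by 0.59, where the median of all genes moved by 0.48, and higher in pit cells, by 0.32, where that median moved by 0.20. Outside the glandular lineages Ptch1 was higher in some rare cells of dataset 2. The D cells of cluster 16, which make somatostatin, held 75.8 and 63.0 CPM, from 12 and 16 UMIs in 12 and 19 cells, and the endothelial cells of cluster 19 held 72.0 and 97.8 CPM, from 2 and 4 UMIs. X/A cells (cluster 17) held 30.4 and 31.9 CPM. These clusters entered no test.

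Hhip, Gli1, Gli2 and Gli3 were not detected in the epithelium of dataset 2. Over the 3826 cells of the 14 epithelial clusters in dataset 2 each of the 4 had 0 UMIs in 136884724 UMIs, which allows a level of up to 0.0219 CPM. None of the 4 passed the filter on low counts there, so 4 of the 8 members were tested. In pit cells against neck, chief and parietal cells 2 of these 4 were higher and 1 lower, where 27.2% of 13894 genes were higher and 32.1% lower. In isthmus cells against the same types 3 were higher (31.9% of all genes) and 0 lower (31.1%), with Ptch1 the one not called at an edgeR adjusted p of 0.36. Pit against isthmus gave 1 higher (18.4%) and 1 lower (22.5%), mature against pre-pit 1 higher (6.52%) and 1 lower (3.84%), and neck against isthmus 1 higher (26.4%) and 1 lower (24.3%).

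**Figure D2:**
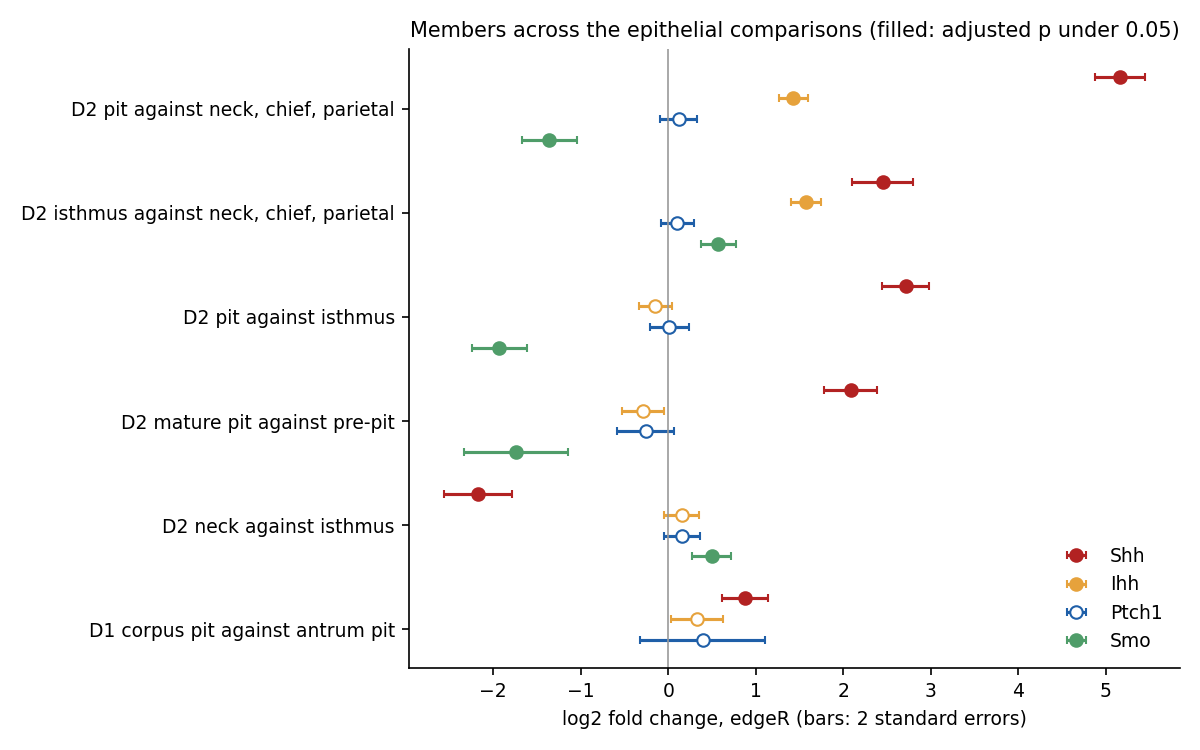
Log2 fold changes (x axis) of Shh, Ihh, Ptch1 and Smo in the 5 epithelial comparisons of dataset 2 (D2) and in corpus against antrum pit cells of dataset 1 (D1), with bars of 2 standard errors and filled points for an edgeR adjusted p under 0.05. Smo is not drawn for dataset 1, where mature pit cells held 0 Smo UMIs. Shh reached 5.16 in the top comparison, Smo took the opposite sign to Shh in 4 of the 5 comparisons of dataset 2, and Ptch1 stayed between -0.26 and 0.16 in them.

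Of the other 22 genes of the pathway list, 12 passed the filter in dataset 2. In pit cells against neck, chief and parietal cells 1 was higher and 4 were lower (27.2% and 32.1% of all genes), and the median of the 12 was a log2 fold change of -0.65, against -0.08 over all genes. Disp1, which releases the lipid-bearing ligand from the cell, was the one higher in pit cells, by 0.97 ± 0.16 (SE, edgeR adjusted p = 0.00014), and it was also higher in isthmus cells than in those types, by 0.79 ± 0.15 (SE, edgeR adjusted p = 0.00044). Boc, a co-receptor, was lower in pit than in isthmus cells, at 0 CPM in mature pit cells, 0.84 CPM in pre-pit cells (8 UMIs) and 1.89 CPM in isthmus cells (100 UMIs). In that comparison 5 of the 12 were lower and 0 higher (22.5% and 18.4% of all genes), the 5 being Boc, Evc, Evc2, Gpr161 and Hhat. Evc and Evc2 act on Smo at the primary cilium, Gpr161 is a ciliary inhibitor of the pathway, and Hhat acylates the ligand. In neck against isthmus cells 4 were higher (Boc, Evc2, Spop and Stk36) and 0 lower (26.4% and 24.3% of all genes). Mature against pre-pit cells called 0 of the 12 by edgeR, with 3 at an unadjusted p under 0.05. In isthmus cells against neck, chief and parietal cells 3 were higher (Disp1, Evc and Evc2) and 3 lower (Spop, Stk36 and Wnt5a), where 31.9% and 31.1% of all genes were.

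Dataset 1 allowed pit cells of corpus and antrum to be compared within the same pools. The clusters carried the regional markers named for them. The antral mature pit cells of cluster 1 held 2589 Krt7 and 2278 Krt20 UMIs in 49 cells, and the corpus mature pit cells of cluster 8 held 16 and 144 in 26 cells, with 251 Sctr and 453 Basp1 UMIs there. Shh stood at 201 and 244 CPM (pools tube1 and tube2) in corpus mature pit cells and at 126 and 137 in antral ones. In pre-pit cells it stood at 111 and 122 CPM in the corpus and at 53.9 and 66.2 in the antrum. All 4 types were separated from one another in both pools, and in each pool the corpus cells lay above the antral cells at both stages. Corpus pit cells exceeded antral pit cells by a log2 fold change of 0.88 ± 0.13 (SE, edgeR adjusted p = 0.00016). The difference was 0.73 ± 0.16 (SE, edgeR adjusted p = 0.0087) in mature cells alone and 1.02 ± 0.21 (SE, edgeR adjusted p = 0.0060) in pre-pit cells alone. The step from pre-pit to mature cells did not differ detectably between corpus and antrum, at -0.29 ± 0.27 (SE, edgeR adjusted p = 0.95).

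**Figure D3:**
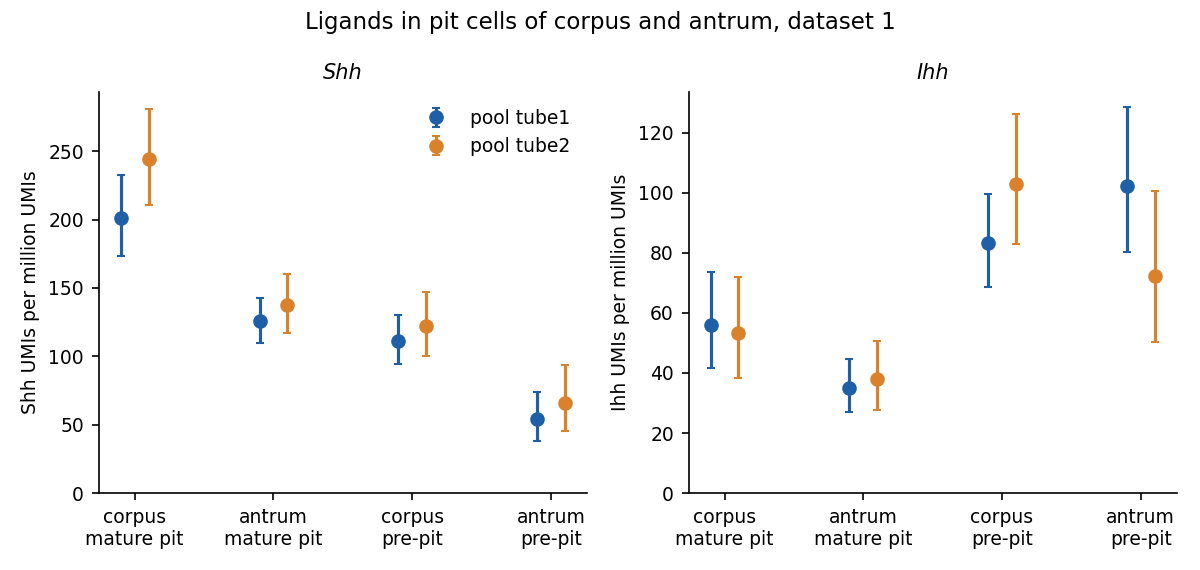
Shh (left) and Ihh (right) in CPM in mature pit and pre-pit cells of corpus and antrum in dataset 1, with 1 point per pool and bars for the exact Poisson 95% interval. For Shh the corpus points lie above the antral points at each stage, at 201 and 244 against 126 and 137 in mature cells, whereas for Ihh the pre-pit points of the 2 regions overlap.

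Ihh in the same cells stood at 56.0 and 53.1 CPM in corpus mature pit cells and at 35.0 and 37.9 in antral ones. Pre-pit cells held 83.1 and 103 CPM in the corpus and 102 and 72.4 in the antrum, so the regions overlapped there. Corpus against antrum gave 0.33 ± 0.15 (SE, edgeR adjusted p = 0.20), and 0.57 ± 0.22 (SE, edgeR adjusted p = 0.20) in mature cells alone. In both regions mature cells held less Ihh and more Shh than pre-pit cells. Shh made up 78.2% and 82.1% of the ligand UMIs in corpus mature pit cells and 78.2% and 78.4% in antral ones, against 57.2% and 54.3% in corpus pre-pit and 34.5% and 47.8% in antral pre-pit cells. Ptch1 ranged from 3.30 to 15.0 CPM over these cells and gave 0.39 ± 0.36 (SE, edgeR adjusted p = 0.60). Smo had 0 UMIs in the 26 corpus and 49 antral mature pit cells, and 12 and 5 UMIs in the 46 and 32 pre-pit cells.

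Of the 4 members that passed the filter in corpus against antrum, 1 was higher and 0 lower, with Smo at 0 UMIs in both mature pit types and so not open to a call, where 3.75% of 10229 genes were higher and 5.48% lower. Of the other pathway genes 5 were tested, 0 were higher and 1 was lower in the corpus. This was Disp1, at 18.3 ± 0.985 CPM in corpus and 40.3 ± 2.2 CPM in antral mature pit cells, and at 20.0 ± 1.1 and 27.9 ± 4.3 CPM in pre-pit cells, with a log2 fold change of -0.78 ± 0.23 (SE, edgeR adjusted p = 0.034). Markers of duodenal enterocytes moved with the region too. Their 6 genes summed to 956 and 1057 CPM in antral mature pit cells with Anpep at 0, and to 125 and 395 CPM in corpus mature pit cells with Lct at 0. Parietal cells of dataset 1 held more, at 8068 and 6803 CPM, so the sum is not particular to duodenal cells. In the cells of the joint cluster 5-7, of which the authors had labelled 50 of 70 as duodenum, the 6 genes summed to 46371 and 38559 CPM. Shh stood there at 2.33 and 6.96 CPM and Ihh at 35.0 and 73.0 CPM. The part of duodenal transcripts in the regional difference was not tested.

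Away from the pit lineage Shh was low in dataset 1 too. Isthmus-like cells held 20.9 and 12.4 Shh CPM, neck cells 1.61 and 2.22, and parietal cells 0 and 0.847, from 0 and 2 UMIs. Ihh stood at 114 and 124 CPM in isthmus-like cells, 126 and 108 in neck cells and 7.17 and 11.01 in parietal cells. Against the average of neck and parietal cells, corpus pit cells were higher in Shh by 7.23 ± 0.26 (SE, edgeR adjusted p = 6.8e-14) and in Ihh by 1.22 ± 0.17 (SE, edgeR adjusted p = 5.5e-06). They were lower in Smo by -3.55 ± 0.95 (SE, edgeR adjusted p = 0.0054) and in Ptch1 by -0.78 ± 0.29 (SE, edgeR adjusted p = 0.032). The pit average includes corpus mature pit cells, which held 0 Smo UMIs, so the size of the Smo difference is poorly fixed. The Ptch1 call was lost with DESeq2 (adjusted p = 0.19). The 2 members that were higher and the 2 that were lower compare with 22.9% and 26.2% of all genes, and of the other pathway genes 1 of 5 was higher (Disp1, 1.43 ± 0.28, SE, edgeR adjusted p = 0.00028) and 1 lower (Spop).

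The response genes were found in the stromal cells. Cells outside the epithelial clusters were called fibroblast-like or smooth muscle-like by the list with the most UMIs among 8 marker lists, with at least 3 of its genes detected in the cell. The lists were fibroblast, smooth muscle or pericyte, endothelial, macrophage, T cell, endocrine, tuft and enterocyte. In dataset 1 this gave 15 fibroblast-like cells, all of cluster 12, and 16 smooth muscle-like cells among the 18 of cluster 11. An earlier annotation by the authors labelled 4 cells of cluster 11 and 6 of cluster 12 as mesenchymal and gave the rest no label. Cluster 12 held all 6 fibroblast markers at a summed 40866 and 50867 CPM, with 330 Pdgfra UMIs. Cluster 11 held all 6 smooth muscle or pericyte markers at 39149 and 38341 CPM, with 3191 Acta2 and 0 Pdgfra UMIs. Epithelial markers were near 0 in both, with 0 Epcam UMIs in cluster 12 and 2 in cluster 11, and a sum of 15.6 to 186 CPM against 5258 to 8211 CPM in the pit clusters. Transcripts that pit cells make in bulk were present, however. The 3 pit markers summed to 1459 and 8647 CPM in cluster 11 and to 1650 and 570.4 CPM in cluster 12, against 79782 to 107731 CPM in the corpus pit clusters. In cluster 11 of tube2 the chief marker Cblif stood at 519 CPM, and the 2 neck markers summed to 681 CPM with Muc6 at 0. The part of these epithelial transcripts in the stromal-like values was not tested. Depth was low, from 6938 to 24105 UMIs in fibroblast-like and from 7618 to 15334 in smooth muscle-like cells.

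Ptch1 was detected in all 15 fibroblast-like cells and in 13 of the 16 smooth muscle-like cells. Its level was 678 and 641 CPM in the fibroblast-like cells of tube1 and tube2, and 888 and 430 CPM in the smooth muscle-like cells. Every one of these sums lay above each of the 14 epithelial sums, of which the highest was 25.8 CPM in neck cells. Over both pools Ptch1 stood at 626 CPM in the 31 stromal-like cells and at 13.4 CPM in the epithelium, a ratio of 46.6 (exact 95% counting interval 38.6 to 56.3). Here and below, the epithelium of dataset 1 is the 308 cells of the 7 types. It leaves out the 21 cells of cluster 10, labelled earlier as chief cells, and the enterocyte, endocrine and tuft cells. The fit gave a log2 fold change of 5.47 ± 0.17 (SE, edgeR adjusted p = 1.8e-18).

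**Figure D4:**
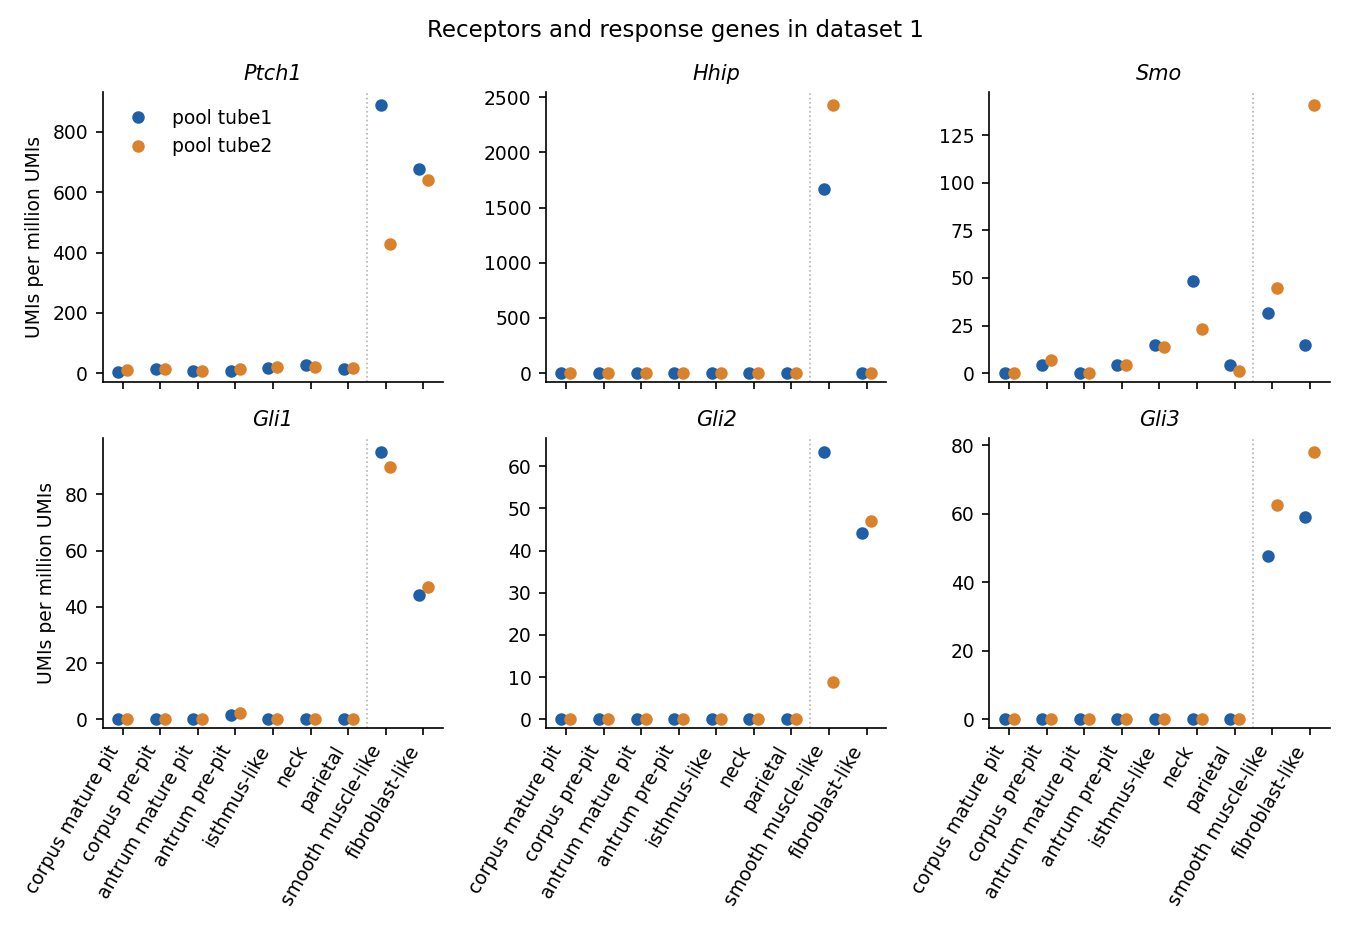
Ptch1, Hhip, Smo, Gli1, Gli2 and Gli3 in CPM, each on its own linear axis, in the 7 epithelial types (left of the dotted line) and the 2 kinds of stromal-like cell (right) of dataset 1, with 1 point per pool. Ptch1 lies at 430 or above in the stromal-like cells and at 25.8 or below in the epithelium, Hhip is at 0 in fibroblast-like cells and at 1666 and 2426 in smooth muscle-like cells, and Smo spans both sides.

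Hhip divided the stromal-like cells. Smooth muscle-like cells held 105 and 271 Hhip UMIs in tube1 and tube2, or 1666 and 2426 CPM, and 13 of the 16 cells had at least 1. Fibroblast-like cells held 0 UMIs in 195860 UMIs, which allows up to 15.3 CPM. The comparison of the 2 kinds was chosen after their values were seen and carries no test. In the epithelium Hhip had 3 UMIs in 16294257, one each in parietal, isthmus-like and corpus mature pit cells. The ratio of all stromal-like to epithelial cells was 5511 (exact 95% counting interval 1871 to 26842). The fit called the difference (edgeR adjusted p = 2.1e-18). Hhip could pass the filter on low counts only through the stromal-like sums, so the direction was fixed beforehand and the call adds no support.

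The Gli factors were found at low counts in both kinds of stromal-like cell. Gli1 had 16 UMIs in smooth muscle-like and 9 in fibroblast-like cells, Gli2 had 5 and 9, and Gli3 had 10 and 14. Gli1 was detected in 14 of the 31 cells, Gli2 in 12 and Gli3 in 17. In CPM over both pools the 3 stood at 67.5, 37.8 and 64.8. The epithelium of dataset 1 held 2 Gli1 UMIs, 1 in the antral pre-pit cells of each pool, a ratio of 550 (exact 95% counting interval 137 to 4788). Gli2 and Gli3 had 0 UMIs there. Against a floor of 3 counts over the group their ratios were 205 and 352, and the exact 95% counting intervals began at 146 and 265. The fit called Gli1 (edgeR adjusted p = 2.0e-08) and Gli3 (edgeR adjusted p = 6.3e-08), while Gli2 did not pass the filter on low counts. Like Hhip, Gli1 and Gli3 could pass only through the stromal-like sums, so these calls add no support. DESeq2 did not call Gli3 (adjusted p = 0.12).

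**Figure D5:**
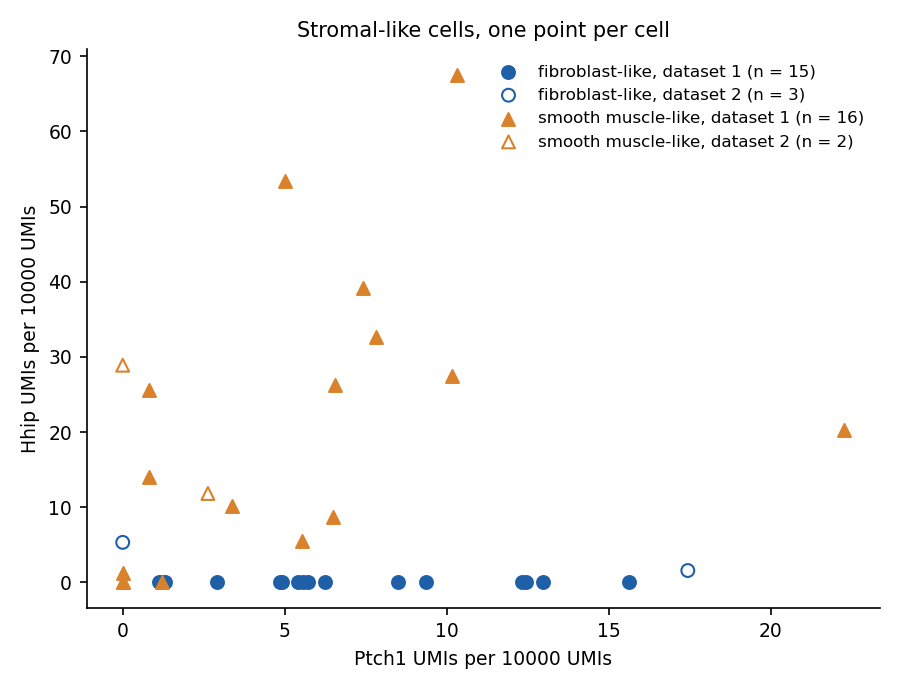
Hhip against Ptch1 in single stromal-like cells, both in UMIs per 10000 UMIs of the cell, with 1 point per cell. The 15 fibroblast-like cells of dataset 1 (filled circles) lie along the x axis with no Hhip, and 13 of the 16 smooth muscle-like cells (filled triangles) lie above it, while open symbols are the 3 fibroblast-like and 2 smooth muscle-like cells of dataset 2.

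Smo was present on both sides. It stood at 22.9 and 96.0 CPM in the stromal-like cells of tube1 and tube2, from 3 and 23 UMIs, which overlaps the 48.4 and 23.3 CPM of neck cells. Against the average of the epithelial types it was higher by 4.65 ± 0.61 (SE, edgeR adjusted p = 1.2e-06), where that average includes 2 types with 0 UMIs, and the ratio over both pools was 9.61 (exact 95% counting interval 6.03 to 14.8). Without tube2 the log2 fold change was 2.85. The ligands were nearly absent from the stromal-like cells, with 1 Shh UMI and 0 Ihh UMIs in 370591, against 1164 and 1092 in the epithelium. For Shh the ratio was 0.0378 (exact 95% counting interval 0.000956 to 0.211), and Ihh at 0 allows up to 8.10 CPM. Both were called lower (edgeR adjusted p = 0.0036 for Shh and 1.1e-06 for Ihh). The Shh call was lost with plates as units (edgeR adjusted p = 0.11), and its log2 fold change was -7.20 with one pool left out and -2.79 with the other left out.

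Of the 8 members 7 passed the filter on low counts in this comparison, all but Gli2, and 5 were higher and 2 lower in stromal-like cells, where 23.9% of 11088 genes were higher and 20.7% lower. Hhip, Gli1 and Gli3 had at most 3 UMIs in the epithelium and could pass only through the stromal-like sums where they are high, so their direction was fixed by the filter and the counts are not read against all genes. Of the other 22 pathway genes 16 passed, and 13 were higher and 0 lower. The same holds for Bmp4, Bmp5, Foxf1, Foxf2, Foxl1, Evc and Gpr161, which had 0 to 3 UMIs in the epithelium. Boc, Gas1 and Evc2 had 11, 13 and 19 UMIs there. Only 5 of the 22 passed in the epithelial comparisons of dataset 1. The direction was thus fixed for more of the 13 than those named first, and the 13 are not read against all genes. The 5 with the most UMIs in stromal-like cells (Bmp5, Foxf1, Bmp4, Wnt5a and Foxf2) were all listed as known to respond in gut mesenchyme, and the other gene so listed, Foxl1, had 17 UMIs. These genes were listed for that tissue, with earlier results of these data known, so their place adds no support for a response. Foxf1, a forkhead factor of the mesenchyme, stood at 583 CPM over both pools with 1 UMI in the epithelium, a ratio of 9497 (exact 95% counting interval 1687 to 376832). Endothelial cells of cluster 13 held Foxf1 too, at 150 ± 18.9 CPM and in 10 of 15 cells. Bmp4, a secreted BMP ligand, stood at 510 CPM with 0 UMIs in the epithelium, and the exact 95% counting interval of its ratio began at 2231. Bmp5, another BMP ligand, was unequal between the kinds, at 1444 and 1156 CPM in fibroblast-like and 190 and 197 CPM in smooth muscle-like cells. Wnt5a, a secreted Wnt ligand, stood at 560 and 649 CPM in fibroblast-like and 63.5 and 188 CPM in smooth muscle-like cells. The remaining 9 that were higher were Foxf2, Foxl1, Boc, Gas1, Evc, Evc2, Gpr161, Sufu and Spop.

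In the corpus alone, stromal-like cells were too few for a test. Dataset 2 had 5, all in pool K and in cluster 15, whose other cells were mostly tuft-like, and pool T had 0. They came from 2 of the 12 plates. The 5 cells held 39 Hhip UMIs in 38194, a level of 1021 CPM (95% Poisson interval 726 to 1396), and 14 Ptch1 UMIs, a level of 367 CPM (200.4 to 615). Of the Hhip UMIs 34 were in the 2 smooth muscle-like cells and 5 in the 3 fibroblast-like cells, of which 2 also held Acta2, at 18 and 57 UMIs. The cell with 57 Acta2 UMIs held 4 of those 5 Hhip UMIs and 0 Pdgfra UMIs, so its kind is unsure. Gli1 had 2 UMIs, Gli2 had 1 and Gli3 had 4, against 0 in all epithelial cells of the dataset. Shh and Ihh had 0.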

How the data were processed

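Dataset 1 (corpus and antrum) and dataset 2 (corpus) were Quartz-Seq2 libraries of pooled wild-type mice, 2 pools each. The authors deposited UMI counts per gene and cell, made with Drop-seq tools and STAR on GRCm39 with Gencode M27, after bcl2fastq 2.20.0.422 per the labels, and removed cells with under 2500 detected genes. They also deposited a Seurat annotation with clusters and the percent of mitochondrial UMIs, which was not used further. Column totals equalled the annotation in all 491 and 3993 cells. The members and lists were chosen with earlier results of these data known.

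Counts were summed per type and pool and tested with edgeR 4.0.16 (TMM, filterByExpr, quasi-likelihood, Benjamini-Hochberg over all genes, called under 0.05), checked on simulated data. Totals per sum ranged from 2165683 to 29539575 UMIs in dataset 2 and from 483675 to 2362300 in the epithelium of dataset 1, with 130921 and 239670 in its stromal-like cells. Types of a pool share mice, so pools pair the sums: deviations of the types correlated positively in all 15 pairs in dataset 2 (median r = 0.13) and in 16 of 21 in dataset 1 (median 0.02). Alternatives were RLE scaling, DESeq2 1.42.0, no filter, a pool block, plates as units, leaving out a pool and other definitions of stromal-like cells. Total-UMI scaling was added after seeing the data. Named genes were the 8 members, pathway genes called in a comparison, markers, and the 5 genes most like Shh and Ihh over clusters, of which 1 is not reported here. The dataset 2 stromal-like comparison needed 3 cells per pool and was left untested. Doublets were not called here.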

Additional observations from a re-analysis of the deposited data

Results flagged for a closer look

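Of 41 groups of 6 plates (a member in a type and pool of dataset 2) 2 had a plate far from the other 5, where chance flags about 1 in 20 groups. In chief cells of pool T, Ihh stood at 33.0 CPM on the highest plate, from 22 UMIs in 667561, against a median of 15.0 and a lowest value of 11.1 CPM. In pre-pit cells of pool T, Ptch1 stood at 27.5 CPM on the highest plate, from 29 UMIs, against a median of 17.8 and a lowest value of 14.6 CPM.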

How the results depend on the processing

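The 35 member fold changes gave 294 values under the alternatives, of which 282 kept direction and side of the threshold, 3 lost the call, 9 gained one and 0 changed sign, and 21 of 24 called differences kept their call under every tested alternative. The calls lost among members still tested were Ptch1 in corpus pit against neck and parietal cells (DESeq2 adjusted p = 0.19), Gli3 in stromal-like cells (DESeq2 adjusted p = 0.12) and Shh there with plates as units (edgeR adjusted p = 0.11). With the pool as a replicate block the Ihh difference of mature and pre-pit cells was called, at -0.29 (edgeR adjusted p = 0.048), and the block changed no other member's call. Total-UMI scaling, added after seeing the data, moved the median of all genes by -0.28 to 0.48. With plates as units, which are technical repeats of a pool, 2590 genes rather than 1439 were called in mature against pre-pit cells, 4 members rather than 2 in neck against isthmus cells, and 2 members rather than 4 in corpus pit against neck and parietal cells, where Ptch1 and Smo no longer passed the filter on low counts, as Hhip did not in stromal-like cells. In corpus against antrum pit cells 945 genes were called, 548 with DESeq2, 439 in mature cells alone and 519 in pre-pit cells alone. With fibroblast markers alone 4 members rather than 7 were called in stromal-like cells of dataset 1, where Hhip, Gli1 and Gli3 no longer passed the filter, and Hhip in dataset 2 fell to 228 CPM. Leaving out a pool left 1 sum per type and so gave values with no test. Shh in corpus against antrum pit cells was then 0.86 and 0.89. Without tube1 and without tube2, Shh in stromal-like cells ranged from -7.20 to -2.79, and Ptch1 in corpus pit against neck and parietal cells from -1.33 to -0.40. The cause of these shifts was not tested. Stromal-like values rest on 31 cells of dataset 1 and 5 of dataset 2.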
